A study of Mus musculus with 8 samples.

Results

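The Ly6 surface antigen cluster of mouse chromosome 15 was described here by its DNA methylation in liver. The 10 genes are Ly6d, Ly6k, Ly6e, Ly6i, Ly6a, Ly6c1, Ly6c2, Ly6g, Ly6h and Gpihbp1. They are given by name and no measured value enters the rule, though the list was drawn up with earlier results of these data known. Each gene was read over its RefSeq span in the mm10 genome with 3 kb added on each side. These extended spans held 1860 listed positions, the 2 strands of 930 CpGs, out of 30729668 listed positions in all, and they were 10 of 33989 genes fitted. No position lay in the spans of more than 1 of the 10 genes.

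The data are whole-genome bisulfite sequencing of liver DNA from wild-type male C57BL/6J mice, bought at 8 weeks of age and then kept for 28 weeks on their diet. The 4 libraries called NASH (nonalcoholic steatohepatitis) are taken to come from mice whose chow was rich in fat, cholesterol and fructose (HFHC), and the 4 called ND from mice on a normal diet. Libraries were grouped by title and column name, but the labels contradict themselves: the treatment entry reads NASH for the samples titled WT, and WT for those titled NASH. Were the treatment entry the right one, every direction given here would turn round. Whether each library is a mouse of its own is not labelled, so p-values measure only the spread between these libraries, which may be technical.

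Bisulfite turns cytosine into uracil unless it is methylated, and the level of a CpG is the percent of reads that still show cytosine there. The table gives levels without read counts, so the depth behind each level is unknown and no counting interval was given. In each library 12.3% to 13.1% of positions were at exactly 0, and some of these may stand for positions without reads. The mean over all extended spans was 66.4% to 67.6% in the NASH libraries and 66.5% to 67.4% in the ND libraries.

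Ly6 genes encode small proteins with a Ly6/uPAR fold, most of which are held on the outer cell surface by a glycosylphosphatidylinositol anchor. Several are antigens by which blood cells are told apart: Ly6a (Sca-1) marks blood stem and progenitor cells and is also made by endothelium and T cells, Ly6c2 is a monocyte antigen, and Ly6g marks neutrophils. Ly6e and Ly6a respond to interferon, and Gpihbp1 carries lipoprotein lipase across the wall of capillaries. Methylation of CpGs at a gene start usually goes with low activity of that gene, while CpG-rich starts of widely used genes are mostly free of it.

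Some members are related copies of each other, and close likeness bears on where short reads can be placed. Sequence before the gene start was held for 3 of the 10 members, from RefSeq (GRCm38.p6). It is shown because it gives both the likeness of these stretches and how few CpGs they have. Each line is the 250 bases before the RefSeq start, 5′ to 3′ on the gene's own strand, with CG in capitals. Ly6c1 lies at chr15:75048838-75049087 on the minus strand, Ly6c2 at chr15:75111972-75112221 on the minus strand, and Ly6g at chr15:75155011-75155260 on the plus strand.
Ly6c1: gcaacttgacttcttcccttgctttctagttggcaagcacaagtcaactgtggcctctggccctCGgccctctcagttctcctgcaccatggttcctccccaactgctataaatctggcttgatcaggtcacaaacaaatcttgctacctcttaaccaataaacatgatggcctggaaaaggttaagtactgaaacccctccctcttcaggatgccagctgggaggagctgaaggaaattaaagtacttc
Ly6c2: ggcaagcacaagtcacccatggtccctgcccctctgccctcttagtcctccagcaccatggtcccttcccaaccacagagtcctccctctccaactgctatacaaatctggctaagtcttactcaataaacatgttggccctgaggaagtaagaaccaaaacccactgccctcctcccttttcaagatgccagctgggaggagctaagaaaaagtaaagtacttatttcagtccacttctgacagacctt
Ly6g: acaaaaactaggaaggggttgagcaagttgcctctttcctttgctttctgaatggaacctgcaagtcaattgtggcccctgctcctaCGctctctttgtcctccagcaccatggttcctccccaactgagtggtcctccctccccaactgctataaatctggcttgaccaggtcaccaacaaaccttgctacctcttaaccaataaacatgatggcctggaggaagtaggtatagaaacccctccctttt

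Aligned with free end gaps, the stretches before Ly6c1 and Ly6g had 175 identical bases in 231 aligned columns (75.8%). Those of Ly6c1 and Ly6c2 had 170 in 234 (72.6%), and those of Ly6c2 and Ly6g had 139 in 208 (66.8%). How reads that match several copies were handled is not given in the sources used here, so the values of Ly6a, Ly6c1, Ly6c2, Ly6g and Ly6i are uncertain to the extent that reads were placed on the wrong copy. The search was for the letters CG, which read the same on both strands. Ly6c1 and Ly6g had 1 CpG each and Ly6c2 had none, against a median of 6 in the 32851 stretches of the same length that RefSeq gave, of which 18.8% had 0 or 1 and 7.87% had none.

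The single CpG before Ly6c1, at 75049022 and 186 bases ahead of the start, was at 45.2%, 46.4%, 50% and 47.3% in NASH replicates 1 to 4 and at 35.7%, 58.9%, 66.1% and 58.3% in ND replicates 1 to 4. The groups overlapped, since the lowest value of all was an ND library. The CpG before Ly6g, at 75155098 and 163 bases ahead of the start, was at 90.0%, 76.2%, 91.7% and 69.4% in NASH and at 90.0%, 100%, 100% and 96.9% in ND. Here too the groups overlapped, with 2 NASH libraries at or above the lowest ND library.

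Over the extended spans, Ly6a lost methylation in NASH and the other 9 members did not pass the test. Ly6a was at 71.0% ± 2.46 (SD, n = 4) in NASH and 78.1% ± 0.820 (SD, n = 4) in ND. The difference was -7.17 percentage points (SE 1.18, limma adjusted p = 0.0163). The mean was lower in NASH for 9 of the 10 genes, with a median difference of -2.08 points, beside 61.7% of all spans with a lower mean and a median of -0.395. Calls were made at an adjusted p under 0.05 for 4.92% of all spans, 1077 higher (3.17%) and 596 lower (1.75%) in NASH, and 1 of the 10 members was among them. At an unadjusted p under 0.05 stood 20.5% of all spans and 2 of the 10 members. With every exact zero left out, the split over all spans turned to 157 higher and 461 lower.

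**Figure D1:**
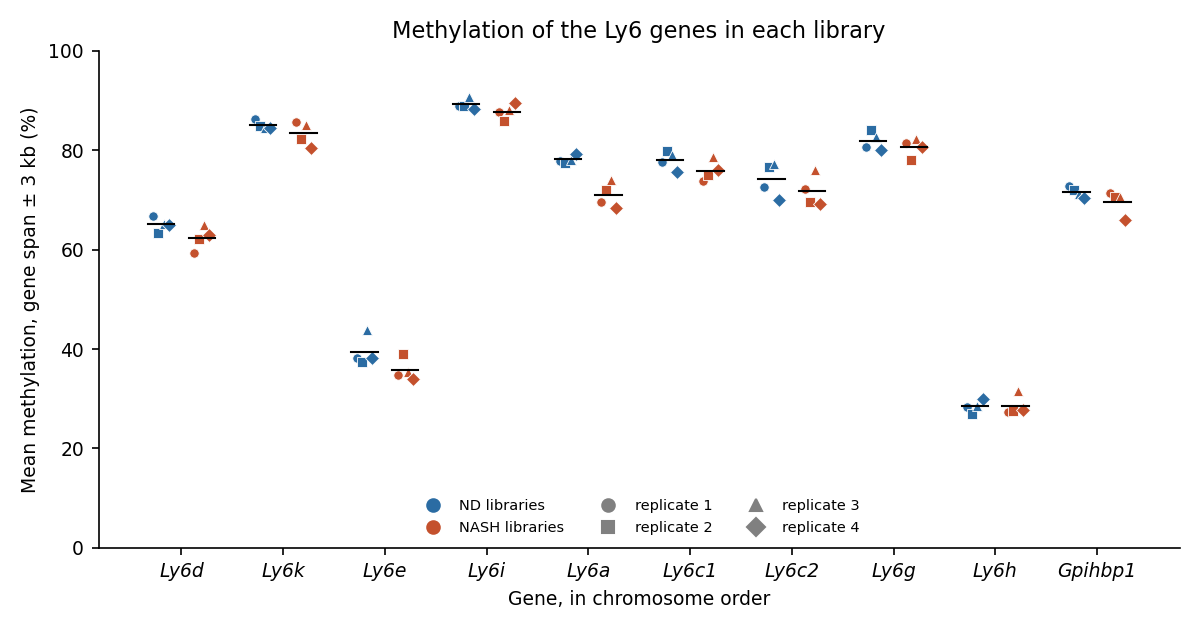
Mean methylation in percent (vertical axis) of each gene's span with 3 kb flanks, in chromosome order (horizontal axis), for the 4 ND (blue) and 4 NASH (orange) libraries, with bars at the group means. The NASH libraries lie below all ND libraries at Ly6a, at most 73.9% against at least 77.3%, while the groups overlap at the other 9 genes.

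The genes spanned a wide range of levels, and the order in the ND livers was as follows. Ly6i was highest at 89.2% ± 1.07, then Ly6k at 85.0% ± 0.918, Ly6g at 81.9% ± 1.83, Ly6a at 78.1% ± 0.820 and Ly6c1 at 78.0% ± 1.79 (SD, n = 4 each). Ly6c2 followed at 74.1% ± 3.42, Gpihbp1 at 71.6% ± 1.05, Ly6d at 65.1% ± 1.39, Ly6e at 39.5% ± 2.96 and Ly6h at 28.4% ± 1.29 (SD, n = 4 each). The ranges of the ND libraries overlapped between Ly6a and Ly6c1, Ly6c1 and Ly6c2, and Ly6c2 and Gpihbp1, and no other neighbours in the order overlapped. The spans densest in CpGs, Ly6h at 20.3 per kb and Ly6e at 14.3, were also the least methylated. Among the rest the order did not follow density strictly: Ly6k had 13.7 per kb at a level of 85.0%, and Gpihbp1 had 11.3 at 71.6%. The others had 3.75 (Ly6g) to 9.98 (Ly6d) per kb.

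Ly6a lies at 74994877 to 74998031 on chromosome 15, and its extended span held 106 positions. Its level was 69.5%, 72.0%, 73.9% and 68.5% in NASH replicates 1 to 4, and 77.8%, 77.3%, 78.1% and 79.3% in ND replicates 1 to 4. The 4 NASH libraries were all below the 4 ND libraries, which happened in 7.41% of all spans. Of all spans, 0.179% had a lower difference than Ly6a. The call was lost without ND replicate 1 (adjusted p = 0.0509, range over the 8 fits that each left out 1 library -8.15 to -6.34 points) and over the gene without its flanks (difference -6.70, adjusted p = 0.307).

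Most of the Ly6a difference lay beside the gene and toward higher coordinates. The 3 kb above the gene were at 67.4%, 74.9%, 73.4% and 67.5% in NASH and at 80.9%, 80.0%, 83.5% and 84.3% in ND, a difference of -11.4 points with no overlap. In the 3 kb below the gene the difference was -4.02 points, again with no overlap, with 70.3% to 71.8% in NASH and 74.1% to 76.6% in ND. Flanks were not tested, and 5.14% of the 3 kb flanks of all genes had every NASH library below every ND library. Over the gene itself, with only 20 positions, the groups overlapped because NASH replicate 3 was at 80.0%. The flank above the gene lies in Gm28068, a non-coding RNA gene annotated across this stretch.

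The strand of Ly6a was not in the tables used, so both of its ends were tested, each from 1000 bases outside to 500 inside. At the high end (74997531 to 74999031, 18 positions) the NASH libraries were at 54.2%, 59.0%, 55.6% and 56.7% and the ND libraries at 75.8%, 68.0%, 71.7% and 79.3%. The groups did not overlap, but the difference of -17.3 points (SE 2.76) missed the threshold over all starts and ends (limma adjusted p = 0.0801). With a wider stretch, 2000 bases outside to 2000 inside, the difference was -13.3 points and passed it (adjusted p = 0.0365). At the low end the difference was -2.20 points (adjusted p = 0.697).

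Single CpGs above Ly6a, named after their values were seen, show where the levels parted. The CpG 918 bases beyond the high end (74998949) was at 62.5%, 61.2%, 31.0% and 43.8% in NASH and at 100%, 83.3%, 87.5% and 93.8% in ND. The CpG 1160 bases beyond it (74999191) was at 50%, 58.3%, 56.1% and 43.8% in NASH and at 83.3%, 87.5%, 83.3% and 87.5% in ND. At these CpGs, and at 74999027 between them (means 38.4% and 69.1%), every NASH library was below every ND library. Closer to the gene, the CpGs 85 and 185 bases beyond the end were low in both groups, with means of 40.7% in NASH and 39.9% in ND at the nearer and 20.1% and 9.8% at the farther, and their groups overlapped. Of the 53 CpGs in the Ly6a span, 4 (7.55%) had all NASH below all ND libraries and 0 had the reverse, beside 1.75% and 1.5% of all CpGs. This share was not particular to Ly6a: in the uncalled span of Ly6c2 it was 4 of 55 (7.27%), with 0 the reverse.

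**Figure D2:**
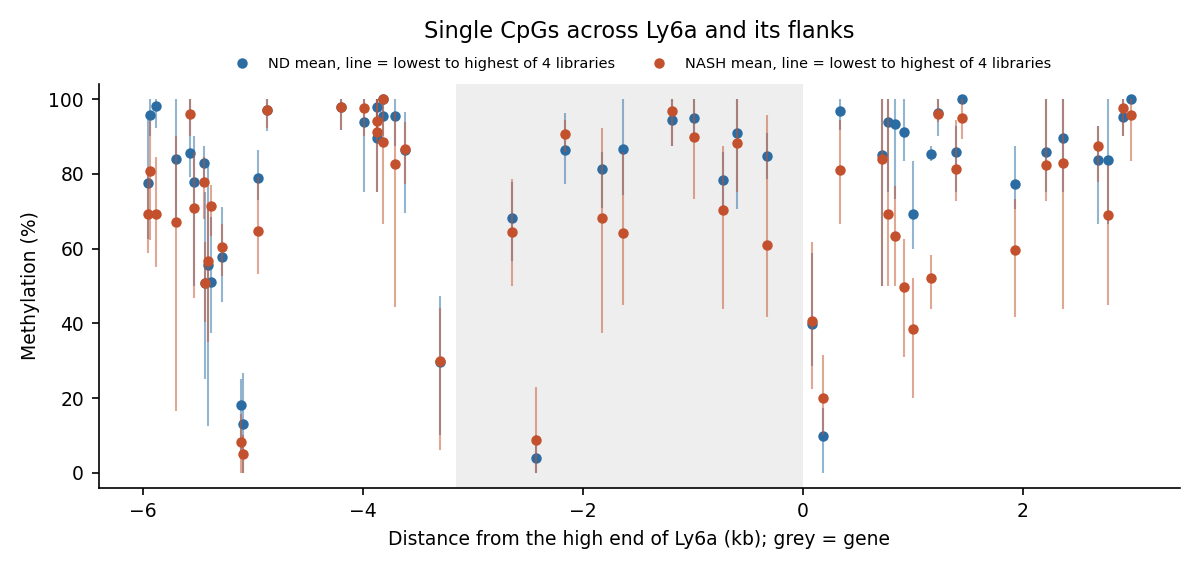
Methylation in percent of each CpG (vertical axis) against distance from the high end of Ly6a in kb (horizontal axis), with group means as points and lines from the lowest to the highest of the 4 libraries. From 918 to 1160 bases beyond the gene the NASH means drop to between 38.4% and 52.0% where the ND means are 69.1% to 91.1%.

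Ly6e and Ly6h carry the CpG-rich stretches of the cluster. Ly6e, an interferon-responsive gene used in many tissues (74955025 to 74959904, 312 positions), was at 34.7%, 38.9%, 35.3% and 33.9% in NASH and at 38.3%, 37.4%, 43.8% and 38.3% in ND. The groups overlapped, and the difference of -3.74 points (SE 1.62) had an adjusted p of 0.243. ND replicate 3 stood above the other ND libraries, and without it the difference was -2.27 points, with an adjusted p of 0.375. With every exact zero left out it was -7.00 points, with an adjusted p of 0.0916. Of its 156 CpGs, 62 had an ND mean under 10%, and 79 of its 312 positions (25.3%) were at 0 in all 8 libraries.

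The 1 kb window at 74955001, the first kilobase of Ly6e with 90 positions, was at 1.35%, 1.20%, 1.19% and 0.278% in NASH and at 0.926%, 0.591%, 10.3% and 0.278% in ND. This stretch was nearly free of methylation in 7 of the 8 libraries, and ND replicate 3 was the exception. On both sides the NASH libraries were lower: the 3 kb below the gene were at 66.4% to 68.6% in NASH and 71.5% to 76.8% in ND (difference -6.37 points), and the 3 kb above it at 65.2% to 73.6% and 76.6% to 80.1% (difference -9.41 points). The groups did not overlap in either flank, which is a description with no test, and overlapped over the gene (17.0% ± 2.97 in NASH and 18.2% ± 4.89 in ND, SD, n = 4 each). Of the 3 kb flanks of all genes, 5.14% had every NASH library below every ND library. Among the members these were both flanks of Ly6a, both of Ly6e and the one above Ly6d.

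The ends of Ly6e were also apart without passing the test. The low end (60 positions) was at 19.5%, 17.6%, 18.5% and 18.1% in NASH and at 22.3%, 22.9%, 38.9% and 24.6% in ND, a difference of -8.80 points with an adjusted p of 0.355. Without ND replicate 3 it was -4.88 points, with an adjusted p of 0.18. The high end (24 positions) was at 70.4%, 71.6%, 70.7% and 65.1% in NASH and at 79.4%, 77.4%, 79.5% and 72.1% in ND, a difference of -7.65 points with an adjusted p of 0.230. At both ends every NASH library was below every ND library, as in 4.21% of all starts and ends.

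Ly6h, which is best known from the brain (75564745 to 75569470, 436 positions), was the least methylated member. It was at 27.2%, 27.5%, 31.6% and 27.7% in NASH and at 28.3%, 26.9%, 28.5% and 30.0% in ND. NASH replicate 3 was the highest library and the groups overlapped, with a difference of 0.0665 points and an adjusted p of 0.987. Its 218 CpGs included 110 with an ND mean under 10%, and 125 of 436 positions (28.7%) were at 0 in all 8 libraries. The gene body was at 10.8% to 15.3% in NASH and 11.3% to 14.6% in ND, while the flanks were at 62.9% or more in every library.

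**Figure D3:**
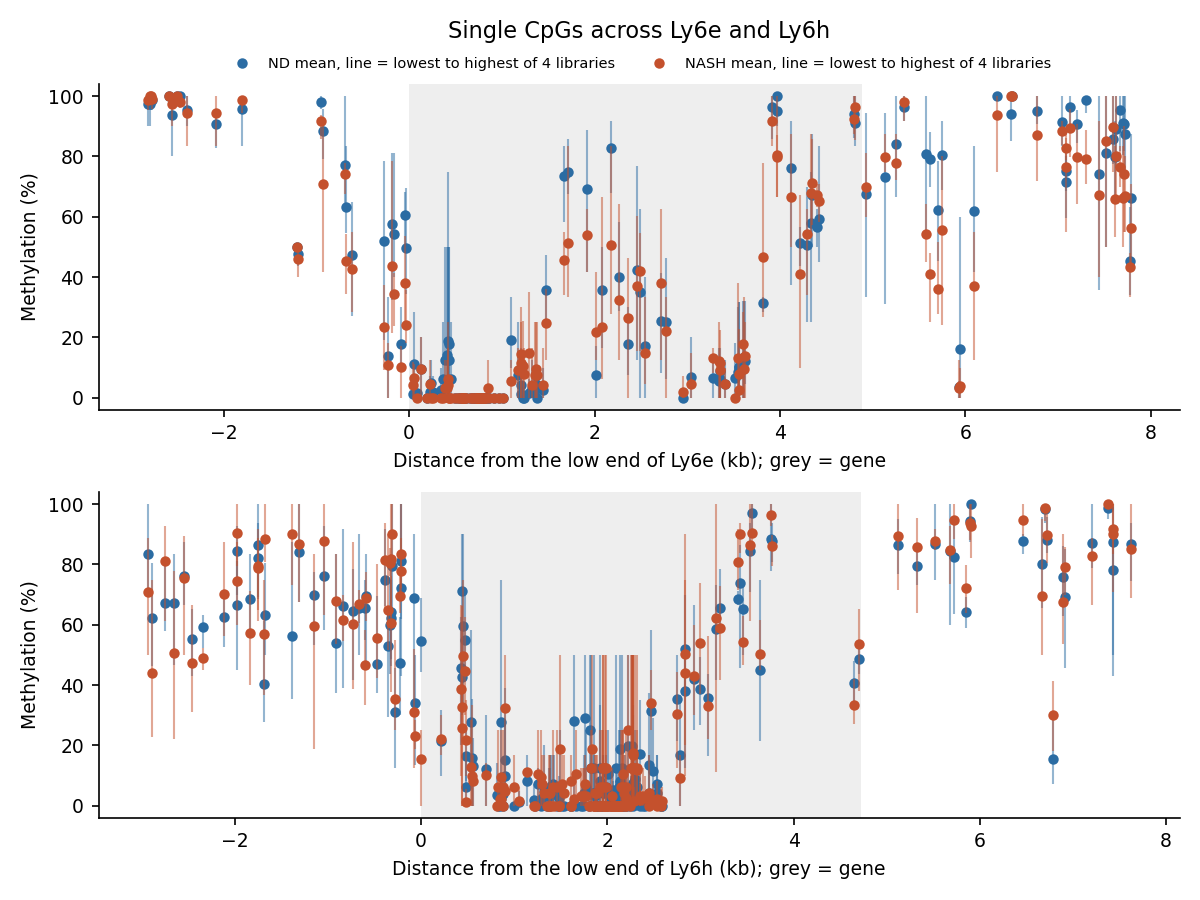
Methylation in percent of single CpGs (vertical axes) against distance in kb from the low end of Ly6e (upper panel) and Ly6h (lower panel), with points at group means and lines from the lowest to the highest of 4 libraries. Both genes have stretches near 0% in both groups, and beside Ly6e the NASH means run below the ND means in both flanks (differences -6.37 and -9.41 points).

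Of the antigens of blood cells, Ly6c1, Ly6c2 and Ly6g did not differ beyond the spread of the libraries over their extended spans. Ly6c1 (75044018 to 75048920), made by endothelium and some lymphocytes, was at 73.7%, 74.9%, 78.6% and 76.0% in NASH and at 77.6%, 79.7%, 79.0% and 75.7% in ND. Ly6c2 (75108161 to 75112066), the monocyte antigen, was at 72.3%, 69.6%, 76.0% and 69.1% in NASH and at 72.5%, 76.6%, 77.3% and 70.0% in ND. Ly6g (75155261 to 75159128), the neutrophil antigen, was at 81.5%, 78.1%, 82.2% and 80.6% in NASH and at 80.7%, 84.1%, 82.6% and 80.1% in ND. In all 3 genes the groups overlapped. The differences were -2.19, -2.36 and -1.28 points with adjusted p-values of 0.372, 0.573 and 0.590. Around their starts the differences were -0.569 points for Ly6c1 (10 positions), -1.80 for Ly6c2 (8 positions) and -7.29 for Ly6g (18 positions), with adjusted p-values of 0.922, 0.944 and 0.466.

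Ly6i (74979534 to 74983434), a close relative of Ly6a, was the most methylated member at 87.7%, 85.8%, 88.0% and 89.5% in NASH and 88.9%, 88.8%, 90.8% and 88.4% in ND. The difference was -1.47 points, with an adjusted p of 0.406, and none of its 63 CpGs separated the groups in either direction. All 8 libraries lay within 85.8% to 90.8%. Ly6k (74796874 to 74799968), known for its part in sperm function, was at 85.7%, 82.3%, 85.0% and 80.5% in NASH and at 86.4%, 84.8%, 84.4% and 84.5% in ND, a difference of -1.64 points with an adjusted p of 0.484. Its groups overlapped as well, with NASH replicate 4 lowest.

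Ly6d (74762056 to 74763567), a marker of early B lineage cells and of keratinocytes, did not pass the test. It was at 59.3%, 62.1%, 64.9% and 62.9% in NASH and at 66.7%, 63.3%, 65.2% and 65.0% in ND, a difference of -2.77 points with an adjusted p of 0.254. Over the gene alone the mean was higher in NASH by 2.46 points, with overlap. In the 3 kb above it the difference was -6.37 points with no overlap (67.8% to 77.7% in NASH and 77.9% to 84.4% in ND), as in 5.14% of the flanks of all genes. Among its 75 CpGs, 5 had all NASH libraries below all ND and 3 the reverse, beside 1.75% and 1.5% of all CpGs. The 3 higher ones lay within the gene (74762460, 74762785 and 74762837, with means of 41.4%, 42.5% and 41.4% in NASH and 12.1%, 9.6% and 11.8% in ND), and the pair at 74764595 and 74764605 beyond it was at 29.2% and 44.7% in NASH and at 76.3% and 88.1% in ND. At its high end the difference was -10.7 points (adjusted p = 0.383), and without NASH replicate 1, the lowest library there, it was -6.11.

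Gpihbp1 (75596630 to 75598213), the carrier of lipoprotein lipase in capillaries, was at 71.4%, 70.6%, 70.6% and 65.9% in NASH and at 72.9%, 71.9%, 71.2% and 70.4% in ND. The difference was -1.97 points with an adjusted p of 0.418, and NASH replicate 4 stood below the rest. At its ends the differences were -0.336 points at the low end and -5.80 at the high end, with adjusted p-values of 0.989 and 0.485.

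No start or end of a member passed the test (limma, unadjusted p under 0.05 for 4 of the 17 tested, all lower in NASH), where 0.0164% of all starts and ends did. Under that unadjusted p stood 12.6% of all starts and ends, 7.11% being lower in NASH. The groups did not overlap at the high end of Ly6a and at both ends of Ly6e, and overlapped at the other 14 starts and ends.

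In 1 kb windows, the 842.2 kb from below Ly6d to above Gpihbp1 held 742 windows, none of which passed the test, as against 0.000248% of all windows. The smallest adjusted p was 0.0723. At an unadjusted p under 0.05 stood 130 windows, 94 lower and 36 higher in NASH, and 10.9% of all windows were under that p, 6.58% lower and 4.33% higher. Within the member spans, 18 windows were lower and 3 higher of 98, and 11 had all NASH below all ND libraries and 1 the reverse, beside 3.71% and 2.78% of all windows. The rest of the region was like the spans in direction, with a lower mean in 65.5% of its 644 windows, compared with 67.3% in the spans and 57.8% of all windows.

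Of the 5 windows with the smallest p, only 1 lay in a member span. It starts at 74999001 in the flank above Ly6a (12 positions) and was at 68.3%, 73.5%, 71.6% and 67.8% in NASH and at 85.3%, 83.1%, 86.6% and 87.8% in ND, a difference of -15.4 points with an adjusted p of 0.0952. The other 4 were higher in NASH and lay between Ly6g and Ly6h. The window at 75226001, in no annotated gene, was at 57.9%, 66.3%, 65.2% and 66.8% in NASH and at 37.8%, 41.0%, 33.3% and 31.0% in ND, a difference of 28.3 points with an adjusted p of 0.0723. The window at 75269001, in the related gene Ly6f, was at 46.5% to 52.5% in NASH and 31.5% to 36.0% in ND, a difference of 16.0 points with an adjusted p of 0.0889. The windows at 75320001, in no annotated gene, and 75451001, in Ly6l, had differences of 18.8 and 19.7 points and adjusted p-values of 0.0985 and 0.108.

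Inside the spans, windows with a lower level were next in order at Ly6e, Ly6c2 and Ly6a again. The window at 74954001, just below Ly6e, was at 43.6%, 40.5%, 41.8% and 44.2% in NASH and at 52.4%, 55.0%, 58.9% and 60.5% in ND (difference -14.2 points). The window at 75109001 in Ly6c2 was at 70.8% ± 4.11 in NASH and 82.6% ± 1.28 in ND (SD, n = 4 each), while that at 75106001 below Ly6c2 was higher in NASH, at 31.5% ± 2.24 and 21.9% ± 3.93. These windows were named after their values were seen, and none passed the test (adjusted p of 0.132, 0.159 and 0.170). Of the 11 windows of Ly6a, 10 had a lower mean in NASH and 4 had no overlap.

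**Figure D4:**
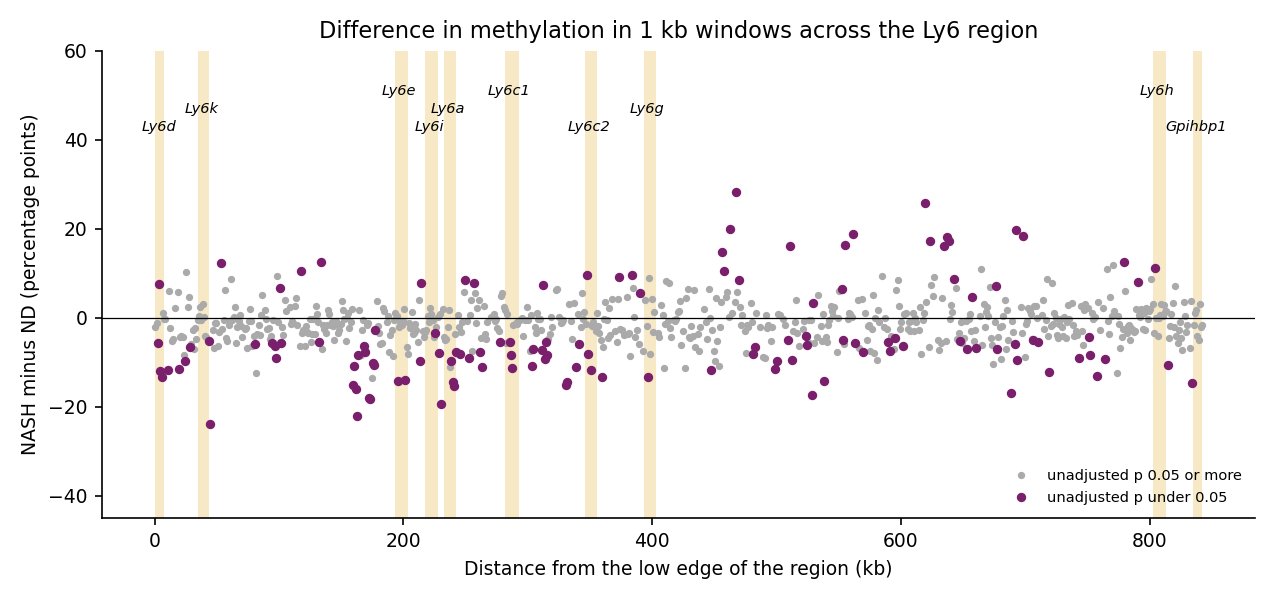
Difference in methylation, NASH minus ND in percentage points (vertical axis), of 1 kb windows against distance from the low edge of the region in kb (horizontal axis); bands mark the member spans and purple points have an unadjusted p under 0.05. Purple points lie mostly below 0 (94 of 130), and the 4 highest-ranked gains by p lie between Ly6g and Ly6h.

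Genes of the same family outside the 10 members had a lower mean in NASH in 12 cases and a higher one in 9. Of 21 other Ly6/uPAR genes tested, Ly6l fell from 84.2% ± 0.398 to 81.0% ± 1.06 (adjusted p = 0.0295) and Ly6g2 rose from 60.7% ± 0.655 to 66.3% ± 2.77 (adjusted p = 0.0491; SD, n = 4 each). Both calls were lost in 7 of the 8 fits that each left out 1 library. The other 19 did not pass, and the median difference was -0.702 points, beside -0.395 over all spans. Calls were made for 4.92% of all spans. Thus Ly6l was lower over its extended span although the window named above, inside it, was higher.

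In bulk liver DNA, a change in the share of a cell type and a change of methylation within cells cannot be told apart, so marker genes of the cells that carry Ly6 antigens were read in the same fit. Of 14 neutrophil and monocyte genes tested, 3 fell and 0 rose: Lcn2 (47.3% in ND, 44.5% in NASH, adjusted p = 0.0245), Mpo (76.1%, 70.4%, 0.0321) and Cebpe (68.2%, 61.7%, 0.0464). Lcn2 encodes an iron-trapping protein of neutrophil granules, which stressed hepatocytes also make. Mpo encodes myeloperoxidase and Cebpe a factor of granulocyte maturation. Leaving out 1 library at a time, Lcn2 and Mpo each lost the call in 6 of the 8 fits and Cebpe in 7, and the number called was 0 to 3. With every zero left out, Lcn2 and Mpo lost it too (adjusted p of 0.127 and 0.0618), and 4 genes of the list were called lower. The list's mean was 64.8% to 65.7% in the NASH libraries and 67.2% to 69.0% in the ND libraries, with a median difference of -2.88 points. Of the 14 genes, 12 had a lower mean in NASH and 2 a higher one (Elane and S100a9). Over all spans, 61.7% had a lower mean and 1.75% were called lower.

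Of 12 macrophage and Kupffer cell genes, Mpeg1 fell from 71.9% ± 2.58 to 64.0% ± 2.20 (adjusted p = 0.0276) and Lyz2 from 80.1% ± 1.35 to 75.4% ± 1.57 (adjusted p = 0.0324; SD, n = 4 each). The former encodes a pore-forming protein and the latter lysozyme. Leaving out 1 library at a time, Mpeg1 lost the call in 5 of the 8 fits and Lyz2 in 6. That list's mean was 68.0% to 68.4% in NASH and 69.2% to 70.8% in ND. Of the 12 genes, 10 had a lower mean in NASH and 2 a higher one (Timd4 and C1qc). Over all spans, 61.7% had a lower mean and 1.75% were called lower. None of 10 lymphocyte genes passed the test (Cd52 at -5.79 points, adjusted p = 0.0762, and Cd2 at -2.42 points, adjusted p = 0.144). The list's mean overlapped between groups, at 77.1% to 79.7% in NASH and 78.1% to 80.1% in ND. Of the 10 genes, 8 had a lower mean in NASH and 2 a higher one (Prf1 and Gzmb), beside the 61.7% of all spans with a lower mean. None of 12 endothelial genes passed either (Erg, NASH 74.6% against 76.6% of ND, adjusted p = 0.111, and Stab1, 77.4% against 80.4%, adjusted p = 0.114). That list's mean was 61.83% to 63.18% in NASH and 63.24% to 63.64% in ND, narrowly without overlap. Of the 12 genes, 9 had a lower mean in NASH and 3 a higher one (Sox18, Tie1 and Sox17), again beside 61.7% of all spans. The part of these cells in the lower level of Ly6a was not tested.

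The hepatocyte list was read for comparison. It is no independent check of the labelled tissue, since it was chosen with earlier results of these data known. Its 18 tested genes were at a mean of 42.2% to 43.6% in ND, below the mean of all spans. Of these, 17 rose in NASH and 0 fell (beside 3.17% and 1.75% of all spans), with a median difference of 10.8 points. Examples were the fibrinogen chain gene Fgg (28.1% to 44.7%), the bile acid transporter gene Slc10a1 (50.3% to 63.4%), the urea cycle gene Cps1 (53.4% to 64.1%) and the liver factor gene Hnf4a (50.8% to 58.3%), with adjusted p-values of 0.00264 to 0.0035. With every zero left out, 11 of the 18 were called higher, and Hnf4a was no longer among them (3.53 points, adjusted p = 0.158). None of the 10 Ly6 members passed the test in that direction.

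**Figure D5:**
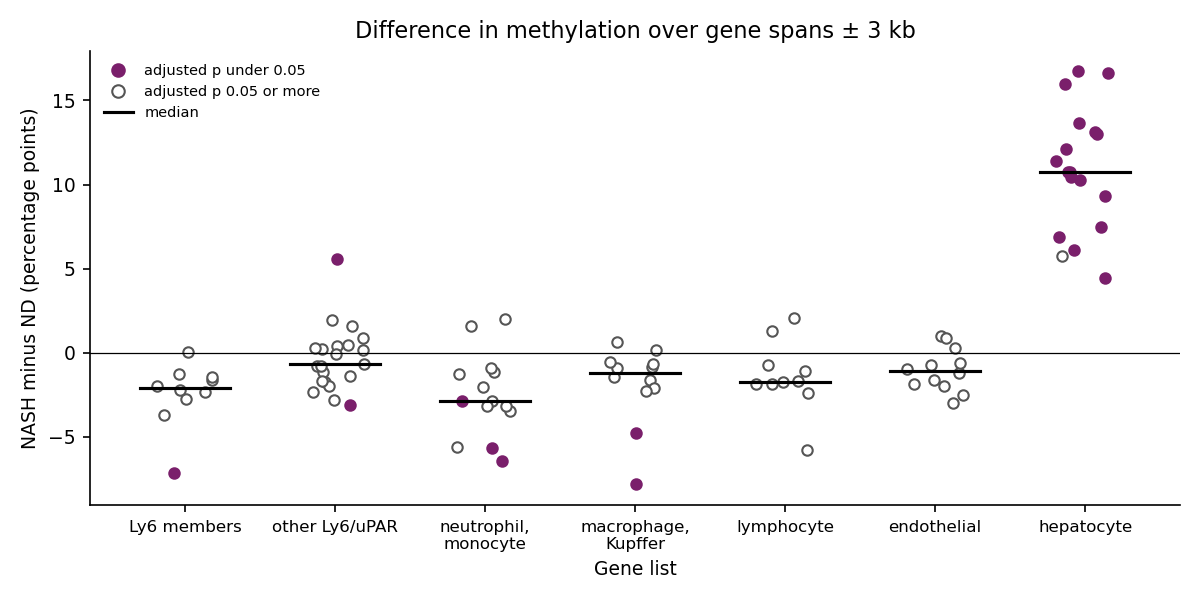
Difference in methylation, NASH minus ND in percentage points (vertical axis), of each gene's span with 3 kb flanks, by gene list (horizontal axis), with filled points for an adjusted p under 0.05 and bars at list medians. The Ly6 members lie between -7.17 and 0.0665 points, and the hepatocyte genes have a median of 10.8.

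The 5 genes outside the region whose levels followed Ly6a most closely over the 8 libraries were Srgap1 (Pearson r = 0.990), Rin3 (0.987), Macroh2a1 (0.986), Gm24382 (0.984) and Zfp456 (0.984). In all 5, every NASH library was below every ND library, so the group difference enters these correlations, and 728 of 33950 genes had an r of 0.9 or more. They are given as a description with no test. Among the other members, r with Ly6a ranged from 0.294 for Ly6g to 0.747 for Ly6d.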

How the data were processed

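Liver DNA was sheared, treated with bisulfite and sequenced, per the labels' protocols, with FastQC and mm10 named in the submitters' processing notes. Which aligner and methylation caller were used is not given in the sources used here. Percent methylation per CpG cytosine and strand was deposited by the authors for 8 libraries, with no read counts, so the planned test on counts could not be run and the depth is unknown. Chromosomes 1 to 4, 5 up to position 117098872 and 10 to 19 were read, and 326824 positions on 85 contigs and 1 incomplete line were left out.

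Deposited positions lay 1 base above RefSeq (GRCm38.p6) positions for all 288486 CpGs of the promoter table, and were shifted. A region's value was the mean of its listed positions, exact zeros included, with at least 6 positions required. Regions were all gene spans with 3 kb flanks, gene starts where a RefSeq table gave the strand (18533 genes, 3 of the members) and otherwise both gene ends (1000 bases outside to 500 inside), and 1 kb windows. Levels were compared, NASH minus ND, with limma 3.58.1 in R 4.3.3 (two-sided, mean-dependent prior variance, Benjamini-Hochberg adjustment over all regions, called under 0.05). The script was tested on simulated data. Python 3.11.15, numpy 2.4.6, pandas 2.3.3, Biopython 1.88 and matplotlib 3.10.9 were also used.

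The members and lists were chosen with earlier results of these data known, and 2 genes of the lists are not reported here. Of the other 106 list genes, 87 were tested and 19 were not, 18 of them on chromosomes not analysed here and 1 on the part of chromosome 5 not read. Named were all members, the 5 region windows with the smallest p, up to 4 called genes per list by p (the first 2 by p where none was called), and the 5 genes with at least 20 positions most correlated with Ly6a. Alternatives covered exact zeros, each library left out, a replicate block, the logit scale, the prior variance, the position filter, flank, start and window sizes, and, added after seeing the data, protein-coding genes only.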

Additional observations from a re-analysis of the deposited data

Results flagged for a closer look

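In 4 of 54 groups of 4 libraries, 1 library lay farther from the rest than Dixon's 95% critical value of 0.829 allows, and chance alone flags about 1 in 20 groups. Over the extended span of Ly6e, ND replicate 3 was at 43.8%, while the other ND libraries were at 37.4% to 38.3%. At the low end of Ly6e, which lies inside that span, the same library was at 38.9% and the others at 22.3% to 24.6%. Over the extended span of Ly6h, NASH replicate 3 was at 31.6%, while the other NASH libraries were at 27.2% to 27.7%. Over the extended span of Gpihbp1, NASH replicate 4 was at 65.9%, while the others were at 70.6% to 71.4%. No cause was tested for any of these.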

How the results depend on the processing

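The count of members called over extended spans, 1, was 0 with a replicate block, 0 over genes without flanks and 0 to 1 with each library left out (0 without ND replicate 1). It was 1 under the other alternatives run. The adjusted p of Ly6a was 0.0703 with the replicate block and 0.00892 to 0.307 over all its alternatives, and its difference kept its sign in each. The count of members with a lower mean was 9 or 10 in every fit. No start or end was called, with 0 to 0 when each library was left out, but 1 was called with 2000 bases on each side of the end. No region window was called, also with each library left out (0 to 0), but 6 were with every zero left out. In that fit 1691 of all 1504772 windows were called. Among the 6 was the gain at 75226001, outside the member spans (25.5 points, limma adjusted p = 0.0237). Called list genes numbered 24, with 15 to 22 when each library was left out (15 without ND replicate 1), 15 with the replicate block, 28 with doubtful zeros left out, 26 of protein-coding genes, and 19 to 24 otherwise. Under the block, Mpeg1 and Lyz2 (adjusted p of 0.0566 and 0.0682) and Lcn2 (0.101) lost the call. No called member or called list gene reversed. Uncalled regions did: the span of Ly6d ranged from -5.60 to 2.46 points and that of Ly6h from -0.975 to 2.44. With 1 library left out, the start of Ly6c2 ranged from -6.13 to 2.70 and the low end of Gpihbp1 from -2.26 to 1.82. The cause was not tested.

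Over all spans, calls numbered 1673, against 618 with every zero left out, 437 with the replicate block, 1073 without flanks and 654 to 1405 with each library left out. Over all starts and ends they numbered 8, against 0 to 2 with each library left out, 0 with the block, 4 on the logit scale, 127 with 1 prior variance, 594 with the wider stretch, 19 and 16 with doubtful and with all zeros left out, and 2 of protein-coding genes. Over all windows they numbered 4, against 8 to 27 with each library left out, 0 with the block, 0 with 1 prior variance, 10 on the logit scale, 1691 with every zero left out, 214 with at least 20 positions, 11 with no filter, 21 in 500-base and 368 in 2000-base windows.

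Same-numbered libraries showed little shared deviation over all spans (correlations -0.0347 to 0.0868). Values near 0 cannot exclude that equal numbers mark a pair or a batch. The loss of the Ly6a call under the replicate block therefore stays a limit of that result. Without read counts, a level resting on few reads could not be told from a well covered one.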
